A study of Mus musculus with 6 samples.

Results

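The 10 pro-apoptotic genes of the Bcl2 family (Bbc3, Bax, Pmaip1, Bak1, Bid, Bcl2l11, Bik, Bmf, Bad and Hrk) were followed through p53 ChIP-seq peak lists of mouse spleen. They are 10 of 22367 protein-coding genes of the GENCODE vM1 annotation on mm9. A peak was given to a gene if it overlapped the gene body extended by 10 kb on both sides, and 78 of 48115 peaks in 5 lists met this rule. ChIP-seq sequences the DNA that an antibody pulls down with its protein, and peaks are the stretches of the genome in which that DNA accumulates. The deposited value of a peak was read as the −log10 of a p-value against local background, a unit inferred from the values and not stated in the lists. It is not normalised between libraries, so the rank of a peak within its own list is given beside it, as a number and as a percent of the list (0% is the top).

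All mice were of strain C57/Bl6. The B cells were taken from the spleens of Trp53+/+ mice, 8 weeks of age, with magnetic beads against B220, and the non-B cells are the spleen cells left after that step. Both came from mock-treated mice and from mice examined 4 h after whole-body irradiation with 7 Gy (IR). The fifth list came from unseparated spleen of Trp53-/- mice, also 4 h after 7 Gy, which lack p53 in every cell. All immunoprecipitations used the p53 antibody NCL-p53-CM5p. Chromatin was pooled across animals and each group had 1 library, so no difference between groups has a replicate check and none was tested. The mock lists held 1413 (B cells) and 712 peaks (non-B cells), the IR lists 24507 and 21400, and the Trp53-/- list 83. The lists give no read totals, so the depth is unknown, and a site that is not listed need not have been free of p53. Peaks of p53 do not measure expression, so the cell type labels could not be checked against marker genes. For the genotype, neither Cdkn1a nor Mdm2, both long-known p53 targets, had a peak in the Trp53-/- list, whereas both had one in each of the 4 wild-type lists.

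Proteins of the Bcl2 family decide whether the outer membrane of the mitochondrion stays closed. Bax and Bak1 are the effectors that open it and let cytochrome c out. The others in the set carry only the BH3 domain: they bind and block the survival members of the family, and some of them also activate Bax and Bak1 directly. In lymphocytes, which die readily after DNA damage, Bbc3 (PUMA) and Pmaip1 (NOXA) are the classical links from p53 to this machinery.

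After irradiation, 8 of the 10 genes had a p53 peak within 10 kb in B cells and 7 had one in non-B cells. The same rule called 53.3% and 51.8% of all protein-coding genes, so most genes had such a peak. In mock cells it was rarer. Bbc3, Bax, Pmaip1 and Bcl2l11 had a peak in B cells mock against 4.46% of all genes, and Bbc3, Bax and Bcl2l11 had one in non-B cells mock against 2.27%. Those 3 genes had a peak in all 4 wild-type lists, as did 1.73% of all genes. No member had a peak in the Trp53-/- list, where 0.125% of all genes had one. Bik and Hrk had no peak in any list, and Bak1 had peaks in B cells IR alone.

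Leading peaks were counted in the same way. A peak in the top quintile of its list lay near 5 of 10 genes in B cells IR (Bbc3, Bax, Pmaip1, Bcl2l11 and Bmf) and near the same 5 in non-B cells IR, against 16.1% and 16.3% of all genes. In the mock lists, 3 of 10 had one in B cells and 3 of 10 in non-B cells (Bbc3, Bax and Bcl2l11 in both), against 0.903% and 0.474%. A peak in the top 1% of the list lay near Bbc3, Bax, Pmaip1 and Bcl2l11 in B cells IR and near the same 4 genes in non-B cells IR, against 0.957% and 0.823% of all genes. A peak after irradiation with none in mock was found at 4 of 10 genes in B cells (Bak1, Bid, Bmf and Bad) and at 4 of 10 in non-B cells (Pmaip1, Bid, Bmf and Bad). Of all genes, 49% and 49.6% did so. Among genes without a mock peak, these were 4 of 6 members in B cells (51.3% of all such genes) and 4 of 7 in non-B cells (50.7%).

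**Figure D1:**
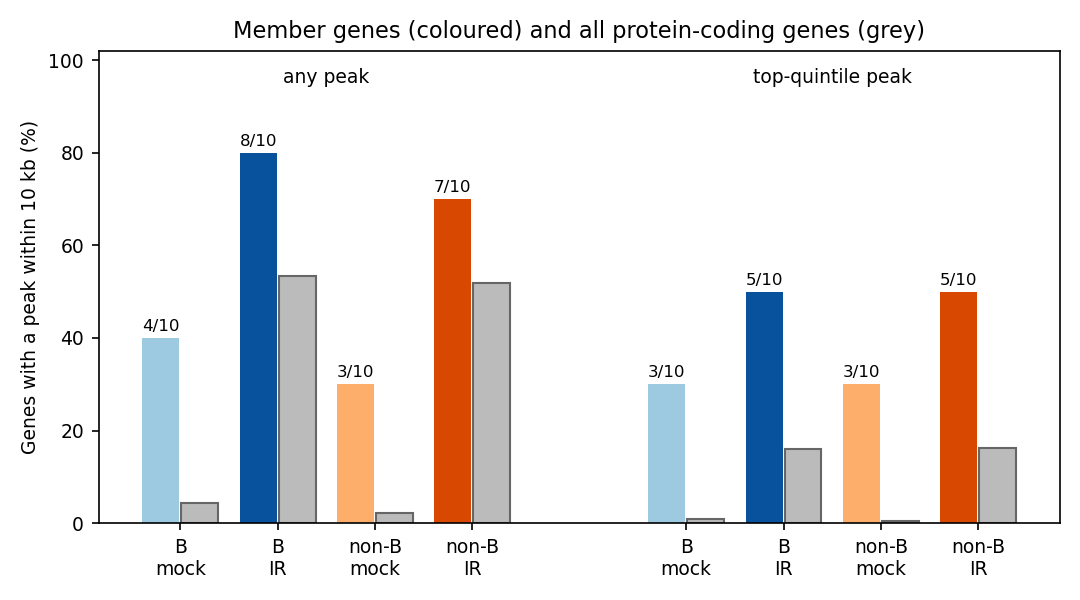
Bars give the percent of genes with a p53 peak within 10 kb (vertical axis) in each wild-type list, for the 10 pro-apoptotic Bcl2 family genes (coloured, with their count) and for all 22367 protein-coding genes (grey). Any peak is shown on the left and a top-quintile peak on the right. In B cells IR 8 of 10 members stood beside 53.3% of all genes for any peak, and in B cells mock 4 of 10 stood beside 4.46%.

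The peaks in the windows of the members were counted as well. Each IR list had 34, which is 9.45 per 100 kb of window in each, against 1.89 and 1.68 per 100 kb over the windows of all genes. The mock lists had 7 peaks (1.95 per 100 kb against 0.0919) and 3 peaks (0.834 against 0.0453) there. Counted per gene, the members had a mean of 3.4 peaks in each IR list against 1.24 and 1.1 over all genes, and 0.7 and 0.3 in the mock lists against 0.0602 and 0.0296. The mean window was 36 kb for the members and 65.5 kb for all genes. The member gene bodies ranged from 5.2 kb (Bax) to 36.5 kb (Bcl2l11), around the median of 15.4 kb for all genes. Merged across the wild-type lists, the peaks formed 38 sites, of which 9 overlapped an annotated start and 6 overlapped another gene.

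**Figure D2:**
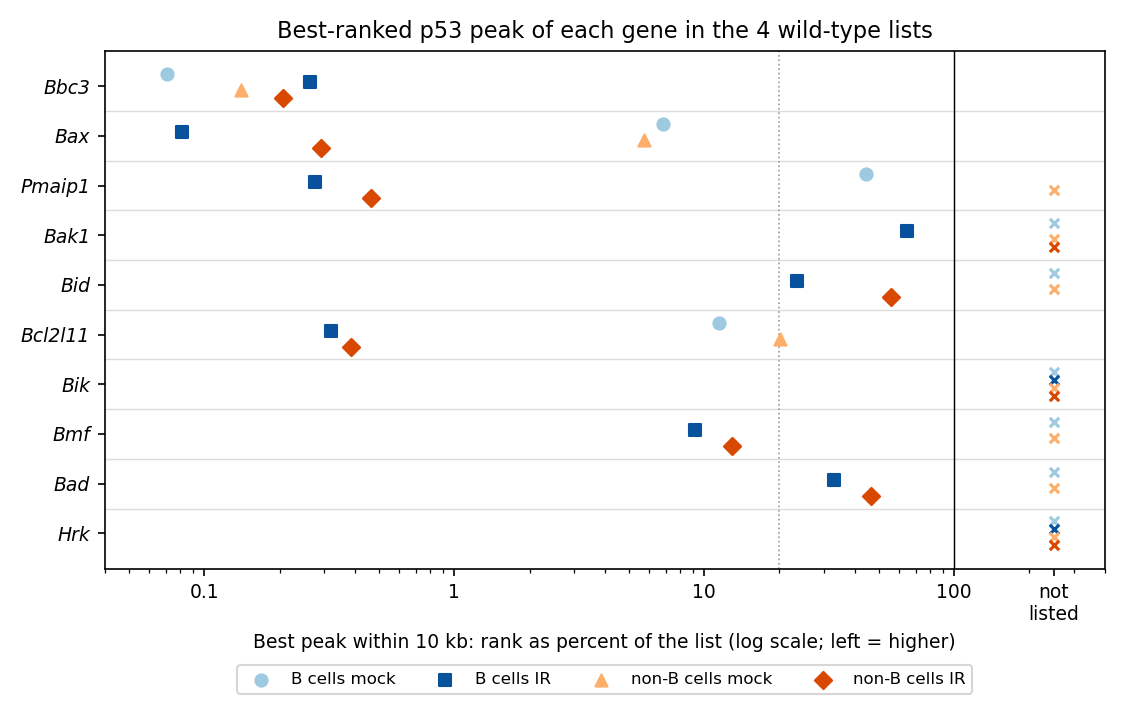
Each point is the best-ranked peak within 10 kb of a gene in a wild-type list, placed by its rank as percent of that list (log scale, higher ranks to the left); crosses at the right stand for no peak, and the dotted line marks the top quintile. Bbc3 stood within 0.265% of the top of all 4 lists, Bax, Pmaip1 and Bcl2l11 lay in the top 1% of both IR lists, and Bik and Hrk had no peak.

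The p53 response element is a pair of decamers, each made of 3 purines, a C, 2 bases that are A or T, a G and 3 pyrimidines. The decamer reads alike on both strands, so a single scan covers both. An element was accepted with at most 3 mismatches, with the C and G of each decamer required, and is called unsplit where the decamers abut. The elements below lie in the irradiated peaks of the members and are given on the plus strand of mm9, with the 4 core bases of each decamer (positions 4 to 7) in capitals. They are shown so that the match to the consensus can be compared between strong and weak sites of the members. The Bcl2l11 intron element was picked by a fixed rule, and the others after their values were seen.
Bcl2l11 intron, chr2:127959831-127959850: ggaCATGccctggCTTGttc
Bax, chr7:52721944-52721963: cgaCAAGcccgggCCTGccc
Bbc3 upstream, chr7:16894835-16894854: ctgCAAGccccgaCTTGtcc
Bid upstream, chr6:120871855-120871874: aaaCTAGccaggaCATGcca
Bcl2l11 second intron site, chr2:127977570-127977589: ggaCATGtgcaggCATGagt
Bcl2l11 downstream, chr2:127989035-127989054: tggCATGctcgcaCTTGcct
Bad coding exon, chr19:7025438-7025457: gagCATGctgggaCTTGcag
The Bcl2l11 intron element had 1 mismatch, at position 11 counted from its left end. The Bax, Bid and Bcl2l11 downstream elements had 2 mismatches, and the other 3 had 3.

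Bax, an effector that forms pores in the mitochondrial membrane, lies on the minus strand of chromosome 7 (52717065 to 52722268). Its main site covered the gene start and the beginning of the gene. In B cells mock the larger of 2 peaks there (chr7:52721590-52722348) had a value of 29.08 and rank 97 of 1413 (6.86%). In non-B cells mock the peak (chr7:52721543-52722268) had a value of 51.42 and rank 41 of 712 (5.76%). Both mock peaks thus lay in the top quintile of their lists. After irradiation the peak covered 1945 bp in B cells (value 298.39, rank 20 of 24507, 0.0816%) and 1720 bp in non-B cells (value 462.0, rank 63 of 21400, 0.294%). The rank number thus went from 97 to 20 in B cells and from 41 to 63 in non-B cells, in irradiated lists that are far longer than the mock lists. In B cells IR it was the highest ranked peak of all members. The Bax element shown above falls in the UTR, 315 bp inside the gene, and lay 16 bp and 48 bp from the midpoints of the B and non-B mock peaks. It lay 431 bp and 326 bp from the midpoints of the wider IR peaks, outside the 300 bp scanned on either side, and was found only when the whole peak was scanned. A second, weaker site past the gene end (values 16.19 and 15.19 in the IR lists) overlapped Ftl1, a ferritin gene.

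Bak1, the other effector, is on the minus strand of chromosome 17 (27156755 to 27165954). It had an intron peak in B cells IR (chr17:27164431-27164651, value 15.14, rank 15851 of 24507, 64.7%) and one past the gene end (value 8.5, rank 22736, 92.8%). Neither had a peak in non-B cells IR, and both overlapped the annotated gene Ggnbp1.

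Bbc3 encodes PUMA, a BH3-only protein that binds all survival members of the family, and lies on the plus strand of chromosome 7 (16894965 to 16903554). Its main site held the highest ranked peak of both mock lists. The mock peaks ended just upstream of the gene start, and the irradiated peaks crossed it. The value was 167.41 in B cells mock (chr7:16893537-16894759, rank 1 of 1413) and 164.78 in non-B cells mock (chr7:16893668-16894868, rank 1 of 712). These peaks were 1223 and 1201 bp wide, where the median widths of the mock lists were 95 and 93 bp. After irradiation the values were 269.88 in B cells (chr7:16892863-16895560, rank 65, 0.265%) and 488.4 in non-B cells (chr7:16892864-16895574, rank 44, 0.206%). Bbc3 was thus first in mock and among the leading peaks, but not first, after irradiation. For scale, Cdkn1a, the p21 cell cycle inhibitor, had mock values of 41.16 (B cells) and 44.35 (non-B cells) and ranked 7 and 1 in the IR lists. Mdm2, which encodes the ligase that degrades p53, had values of 18.8 and 24.21 in mock and ranks of 179 and 189 in IR.

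The Bbc3 site had no unsplit element within 300 bp of the midpoint of its irradiated peaks. The element shown above, 121 bp before the gene start, has 3 mismatches, lies within the non-B mock peak but outside the B mock peak, and was 696 bp and 576 bp from the mock midpoints. The 1092 bp common to both mock peaks held a decamer without mismatch, 909 bp before the gene start, and 2 decamers with 1 mismatch at 783 and 721 bp. The stretch with all 3 is printed because the mock midpoints (16894148 in B and 16894268 in non-B cells) fall in it. Capitals mark the 3 decamers.
Bbc3 upstream, chr7:16894032-16894331, plus strand, mm9: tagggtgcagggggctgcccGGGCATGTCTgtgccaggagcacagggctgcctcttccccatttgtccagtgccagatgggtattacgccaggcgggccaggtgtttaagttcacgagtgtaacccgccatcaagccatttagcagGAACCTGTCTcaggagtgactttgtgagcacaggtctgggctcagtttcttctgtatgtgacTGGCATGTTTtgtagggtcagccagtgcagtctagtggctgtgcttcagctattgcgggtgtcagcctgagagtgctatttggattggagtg
The perfect decamer was 92 bp from the B mock midpoint and 212 bp from the non-B mock midpoint. A perfect decamer stood within 300 bp of the midpoint of 37.3% of B mock and 44.5% of non-B mock peaks, and in 19.5% and 20.4% of windows moved by 10 kb, so its presence alone is common.

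The remaining 6 Bbc3 sites were weak. The strongest was an intron site 6140 bp from the gene start, with values of 26.45 (rank 8581, 35%) in B cells IR and 11.15 (rank 17187, 80.3%) in non-B cells IR. It held an element with 1 mismatch whose decamers are parted by 1 base. Elements with any spacer of 1 to 15 bases and at most 2 mismatches were counted within 300 bp of the midpoint of 15.9% of B cells IR and 15.3% of non-B cells IR peaks. In windows moved by 10 kb the share was 11.7% for either list, so elements under this looser limit are common. No share is at hand for 1 mismatch and a spacer of 1 base. A site 9.82 kb upstream had values of 10.99 (B cells) and 16.21 (non-B cells). A second intron site had 11.11 and 7.49. Of the other 3, listed in non-B cells IR alone, none had a value above 8.36.

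Bcl2l11 encodes BIM, a BH3-only protein known for its part in the death of developing and activated lymphocytes, and lies on the plus strand of chromosome 2 (127951774 to 127988283). Its main site lay in an intron, 7988 bp from the gene start, not at the start itself. In B cells mock the largest of 3 peaks there (chr2:127959594-127960048) had a value of 21.47 and rank 162 of 1413 (11.5%). In non-B cells mock a single peak (chr2:127959670-127960030) had a value of 20.12 and rank 143 of 712 (20.1%), the last rank of the top quintile. After irradiation the value was 264.13 in B cells (chr2:127958555-127960970, rank 79, 0.322%) and 431.85 in non-B cells (chr2:127958656-127961055, rank 83, 0.388%). The element with 1 mismatch shown above lay 19 bp from the midpoint of that B mock peak and 10 bp from the midpoint of the non-B mock peak. It lay 78 bp and 15 bp from the midpoints of the IR peaks.

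A second intron site of Bcl2l11, 26.6 kb from the gene start, had no mock peak. In B cells IR it was a single peak of 2472 bp (value 186.77, rank 314, 1.28%). In non-B cells IR it was split into 2 peaks with values of 100.19 (rank 926) and 143.84 (rank 578, 2.7%). It held the unsplit element with 3 mismatches shown above and an element with 1 mismatch and a spacer of 3 bases.
Bcl2l11 second intron site, spacer of 3 bases, chr2:127978494-127978516: ggaCATGcttttgaagCAAGtgc
The start of Bcl2l11 ranked far lower, with a value of 30.13 (29%) in irradiated B cells and 16.25 (58.7%) in their non-B counterparts. The downstream site with the element shown above had values of 36.49 (22.7%) and 7.49 (96.8%). The other 3 Bcl2l11 sites were each listed in 1 IR list, with values from 7.46 to 11.83.

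**Figure D3:**
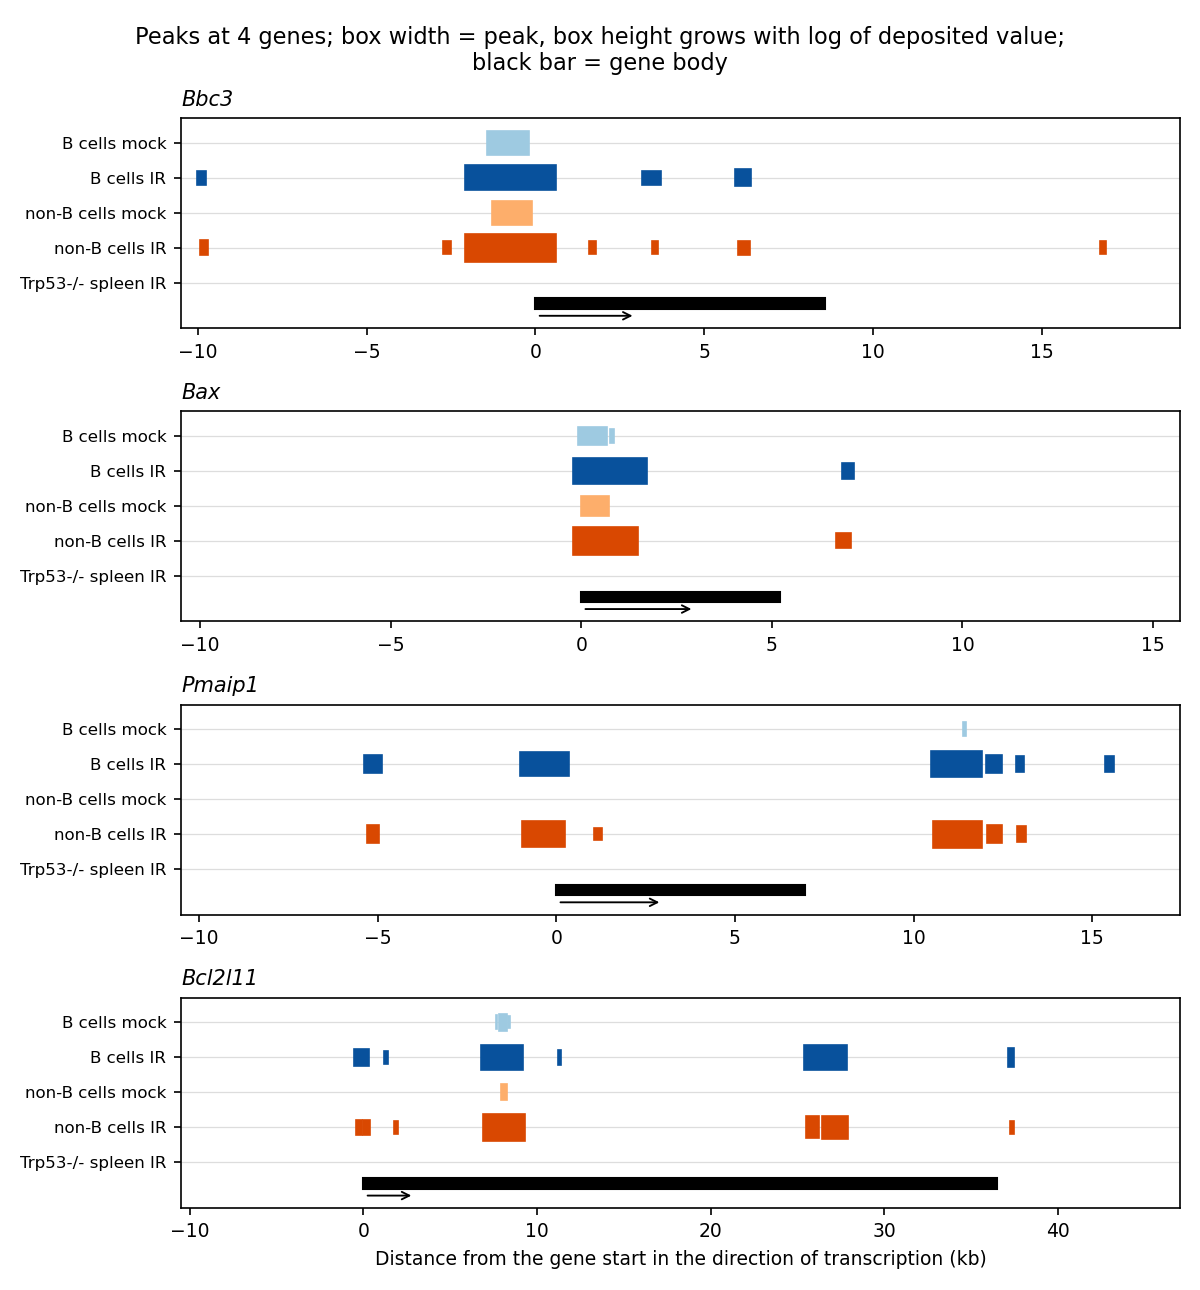
Peaks of the 5 lists at Bbc3, Bax, Pmaip1 and Bcl2l11, by distance from the gene start in the direction of transcription (horizontal axis, kb). A box spans a peak, its height grows with the log of the deposited value, and the black bar is the gene body. The main site lies at or just upstream of the start of Bbc3 and over the start and beginning of Bax. It lies about 8 kb inside Bcl2l11 and past the end of Pmaip1, and the Trp53-/- row is empty in all 4 panels.

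Pmaip1 encodes NOXA, a BH3-only protein that chiefly binds the survival protein Mcl1, and lies on the plus strand of chromosome 18 (66618258 to 66625204). Its highest ranked site lay downstream and began 3536 bp past the gene end, with no other annotated gene in the window. In B cells mock a peak of 84 bp there had a value of 10.19 and rank 626 of 1413 (44.3%), and the non-B mock list had none. The irradiated value was 269.08 in B cells (rank 68, 0.277%) and 392.26 in non-B cells (rank 99, 0.463%). An unsplit element with 2 mismatches lay 10 bp from the midpoint of the B mock peak, and 210 bp and 174 bp from the midpoints of the IR peaks. The second site covered the Pmaip1 start, had no mock peak, and had values of 192.73 (rank 283, 1.15%) in B cells IR and 237.89 (rank 287, 1.34%) in non-B cells IR. An unsplit element with 2 mismatches stood 165 bp before the start. A site 5.12 kb upstream had values of 33.54 in B cells IR against 32.82 in non-B cells IR, and one 12.2 kb from the start, past the gene end, had 37.79 and 26.53. The other 3 Pmaip1 sites had values from 6.6 to 18.27.

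Bid is the BH3-only protein that caspase-8 cuts to carry the death receptor signal to the mitochondrion. It lies on the minus strand of chromosome 6 (120841948 to 120866871). It had 4 sites, all in both IR lists and none in mock. The best was an intron site with a value of 35.2 in B cells IR (rank 5778, 23.6%) and 17.32 in non-B cells IR (rank 12008, 56.1%). The upstream site, 5032 bp from the start, had values of 33.9 (25.1%) and 16.25 (59%), and its element with 2 mismatches lay 39 bp and 0 bp from the midpoints. A further intron site had values of 28.97 and 7.29. At the Bid start itself the values were 6.46 and 7.74, near the bottom of both lists (99.2% and 95.8%).

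Bmf, a BH3-only protein tied to the cytoskeleton and to loss of attachment, lies on the minus strand of chromosome 2 (118354493 to 118375423). It had 6 sites in both IR lists and none in mock. The best was an intron site 3188 bp from the start, with a value of 64.37 in B cells (rank 2246, 9.16%) and 50.12 in non-B cells (rank 2752, 12.9%). An upstream site at 4864 bp had values of 50 (13.8%) and 27.56 (32.3%). The Bmf start had values of 20.6 and 15.19, and the other 3 sites ranged from 11.01 to 27.29. None of the 6 held an unsplit element within 3 mismatches, which says only that these letters were not in the windows scanned. An element with 2 mismatches and a spacer of 5 bases (chr2:118372639-118372663) lay in the window scanned at the best site, outside the peak itself.

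Bad, a BH3-only protein whose activity is set by phosphorylation, lies on the plus strand of chromosome 19 (7016351 to 7026388). Its best site overlapped an internal annotated start near the gene end, with a value of 27.66 in B cells IR (rank 8065, 32.9%) and 20.63 in non-B cells IR (rank 9965, 46.6%). At the main start the values were 13.08 and 10.08. That site overlapped the neighbour Gpr137, as did another site listed in B cells IR alone (value 11.01). Bik and Hrk, BH3-only genes on chromosome 15 (83357292 to 83375065) and chromosome 5 (118619773 to 118639487), had windows of 37.8 and 39.7 kb with no peak in any of the 5 lists. The median window of all genes was 35.4 kb. With gene bodies extended by 25 kb, all 10 members, Bik and Hrk among them, had a peak in B cells IR, and 9 had one in non-B cells IR. No share of all genes is at hand for 25 kb. With 10 kb, 53.3% of all genes already had a peak in B cells IR, so these wider counts say little about the members.

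The sites were split into a strong and a weak class at a value of 100, a limit set after the values were seen. In either IR list, 6 sites at Bbc3, Bax, Pmaip1 and Bcl2l11 had a value of at least 100, and the next highest was the Bmf intron site at 64.37. All 6 strong sites were in both IR lists and 4 of them had a mock peak. Of the 32 weaker sites, 21 were in both IR lists and 0 had a mock peak. For all peaks above and below this limit, no share in both IR lists or with a mock peak is at hand. These counts therefore describe the members alone. An unsplit element anywhere in the peak was found at 6 of the 6 strong sites and at 3 of the 32 weaker ones. Within 300 bp of the midpoint it was found at 4 and 3. Over the whole B cells IR list the share near the midpoint was 15.3% of all peaks and 64.7% of the 1045 peaks with a value of at least 100, and over the non-B cells IR list 15.4% and 68.1% of 936. In windows moved by 10 kb it was 3.22% and 3.31%. With the whole peak scanned, 70.8% and 75% of the peaks with a value of at least 100 held one. The strong peaks of the members were 740 to 2711 bp wide, where the list medians were 340 and 315 bp, so a scan of the whole peak read more bases there.

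Of the 6 strong sites, 3 overlapped an annotated start (Bbc3, Bax and Pmaip1), as did 6 of the 32 weaker sites (1 each at Bid, Bcl2l11 and Bmf, and 3 at Bad). No share of all peaks that overlap a start is at hand. The strong peaks were also wider than the list medians, and the part of width in these counts was not tested. The other 3 strong sites lay in introns of Bcl2l11 and past the end of Pmaip1. The 9 sites at starts had a median GC content of 57.7% (50.9 to 69.4%), and the other sites 50.4% (42.3 to 71%). The medians over all peaks of the IR lists were 49.4% for B cells against 49.9% for non-B cells. The part of GC content in the calls was not tested.

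Of 38 sites, 27 were in both IR lists, 6 in B cells IR alone and 5 in non-B cells IR alone. As peaks, 28 of 34 member peaks of B cells IR overlapped a non-B peak (82.4%), against 73.6% of all B cells IR peaks. In the other direction it was 29 of 34 (85.3%), against 85.3% of all non-B cells IR peaks, so sharing was close to that of the lists as a whole. The midpoints of the shared sites lay a median of 47.5 bp apart, and 543 bp at most. The 11 unshared sites had values of 6.6 to 18.3, all below the list medians of 19.5 and 19.4. An unsplit element anywhere in the peak was found at 0 of them. Over whole peaks, 14.7% of all B cells IR and 14.6% of all non-B cells IR peaks held one, so a count of 0 among 11 says little. Over the 27 shared sites the deposited values in B and non-B cells had a Spearman's rho of 0.797. This is a description, since sites of 1 gene share their region and all sites share their libraries. At 23 of the 27 shared sites (85.2%) the rank, as percent of the list, was higher in B cells. Over all 18045 B cells IR peaks that overlap a non-B cells IR peak, it was higher in B cells at 59.3%. The exceptions were the Bbc3 start, the site 9.82 kb upstream of Bbc3, the Pmaip1 site 5.12 kb upstream and the Bid start. The peaks were wider in B cells at 20 of 27 shared sites (74.1%), against 68.2% over all overlapping peaks. With 1 library per compartment, a difference between cells and a difference between libraries cannot be told apart.

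Between the compartments, the deposited value and the rank did not always point the same way at the strongest sites. Within a list the rank follows the value, so both give the same order there. At 5 of the 6 strong sites the value was higher in non-B cells IR, whose highest value was 621 against 326 in B cells IR, whereas the second Bcl2l11 intron site had the higher value in B cells. By value, the order in B cells IR was Bax (298.39), Bbc3 (269.88), Pmaip1 (269.08) and Bcl2l11 (264.13). In non-B cells IR it was Bbc3 (488.4), Bax (462.0), Bcl2l11 (431.85) and Pmaip1 (392.26). With no replicates, no spread is at hand to say which neighbours in these orders differ.

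**Figure D4:**
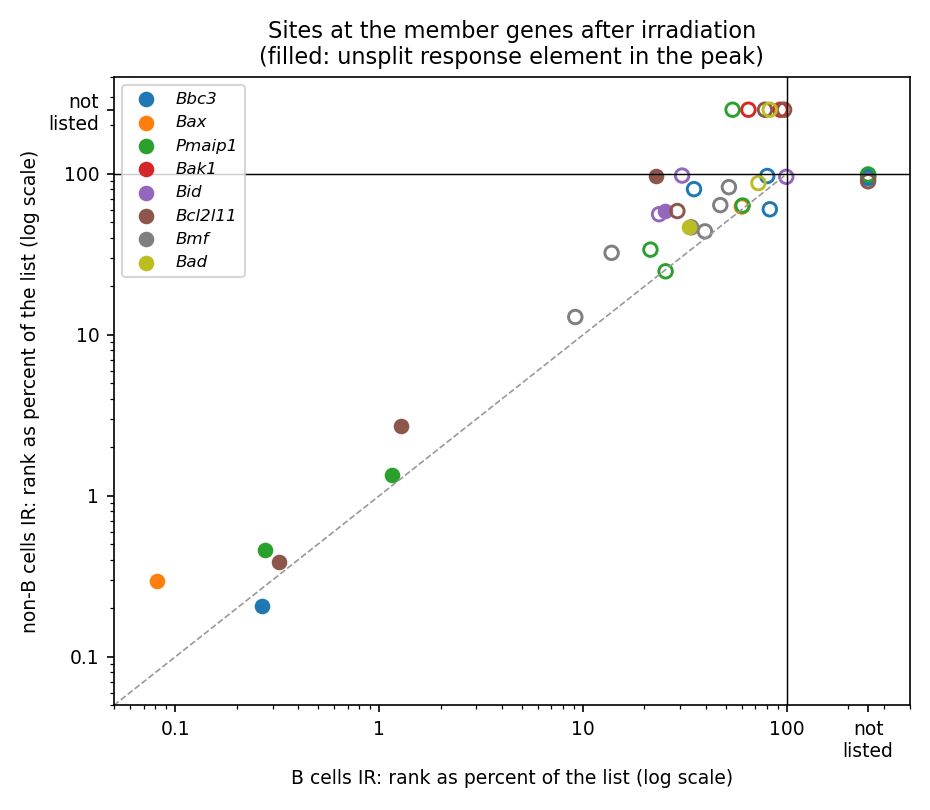
Each circle is a site at a member gene, placed by its rank as percent of the list in B cells IR (horizontal) and non-B cells IR (vertical), both on log scales with the highest ranks at the lower left. Filled circles hold an unsplit response element in the peak, the dashed line marks equal ranks, and circles beyond the solid lines are absent from that list. The 6 strong sites lie within 2.7% of the top of both lists and are all filled, and 23 of 27 shared sites lie above the dashed line, on the side of a higher rank in B cells.

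Mock and irradiated lists differ in length, and the irradiated lists were therefore also cut by rank to the length of the mock list of the same compartment. The cut lists held peaks at Bbc3, Bax, Pmaip1 and Bcl2l11 and at no other member, the same 4 genes for either compartment. No member then had a peak after irradiation and none in mock in B cells (0 of 10), and Pmaip1 alone did so in non-B cells (1 of 10). No share of all genes is at hand for the cut lists, so these counts have no background beside them. The smallest peak width was 55 and 53 bp in the mock lists and 175 and 174 bp in the wild-type IR lists, so widths and the number of small peaks are not on 1 footing across treatments. The part of list length and calling in the gain at Bid, Bmf, Bad and Bak1 was not tested.

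Genes whose best peak stood at ranks most like those of Bbc3 over the 4 wild-type lists were looked for among 386 genes with a peak in all 4 and none in common with Bbc3. Sp1 and Gm17671, which share their peaks on chromosome 15, were nearest, with a sum of absolute rank differences of 1.42 percentage points. Myo1g on chromosome 11 followed with 1.61. Their peaks stood at 0.425 to 1.12% of the mock lists, whereas Bbc3 stood at 0.0708 and 0.14%.

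Other genes of the pathway were read from 4 lists. Of all protein-coding genes, 53.3% (B cells) and 51.8% (non-B cells) had a peak within 10 kb after irradiation. A top-quintile peak lay near 16.1% and 16.3% after irradiation, and any mock peak near 4.46% and 2.27%. The lists are short, and their counts were not tested against these shares. Of 9 survival genes of the family, 6 had a peak in each of the IR lists, and 3 (B cells) and 2 (non-B cells) had one in the top quintile. Bcl2l1 (BCL-XL) was the highest, with a value of 133.25 (2.57%) in irradiated B cells against 73.5 (6.86%) in the other compartment, followed in B cells by Bcl2 at 82.55. Mcl1 was the only survival gene with a mock peak, at values of 6.3 and 6.99. Of 7 other relatives, 5 and 3 had a peak after irradiation and 0 in mock, with Bcl2l15 highest (65.84 and 71.09). Of 8 genes that act after the mitochondrion opens, 6 and 6 had a peak after irradiation and 0 in mock. Among them were Htra2, a protease released from the mitochondrion (88.18 and 72.53), and Casp9, the initiator caspase of this route (43.46 and 52.88). Of 4 genes upstream of Bid, all 4 had a peak in each IR list, led by the death receptor Fas (113.7, 3.37%, and 130.12, 3.16%). Fadd, the adaptor of that receptor, had a peak in both mock lists (11.35 and 10.41), and Fas had one in B cells mock (6.3). None of the genes in these 4 lists had a peak in the Trp53-/- list, where 0.125% of all genes had one.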

How the data were processed

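The study immunoprecipitated p53 from chromatin of splenic B cells, non-B cells and Trp53-/- spleen. Its methods state that low-quality bases were masked and reads aligned to mm9 with BWA (version 0.6.2 in the processing notes of the submitters), and peaks were called per library with MACS. The deposited files have no header and give 1 value per peak, read here as −log10 of a p-value, since no source names the column. The lowest values were just above 5 (5.01 to 5.85), and at best 25.2 to 35.1% of the values below 40 in the wild-type lists matched −log10 Poisson probabilities of whole read numbers at 1 background mean. The Trp53-/- list was too short for that check. The unit remains an inference: the methods state a limit of 1e-08, yet 31.6% of B mock and 4.5% of B IR peaks lay below 8. The input library was not analysed here.

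Groups came from the sample labels. Peaks were matched to GENCODE vM1 genes on NCBIM37 (mm9, coordinates from 1) by at least 1 bp of overlap, and all peaks ended within the reference chromosomes. Ranks followed the value, with ties by width, chromosome and start. Peaks of all protein-coding genes gave the background. Elements were sought within 300 bp of the midpoint of irradiated peaks and over whole peaks, unsplit with at most 3 mismatches or with a spacer of 1 to 15 bases and at most 2. Promoter sequences on another build were not used. The members and lists were chosen with earlier results of these data known. The rule for names was all 10 members, with the element of fewest mismatches of each member's best irradiated peak, the 3 genes most like Bbc3, and 4 lists of pathway genes with Cdkn1a and Mdm2 for scale. The values of 1 pathway gene are not reported here. The limits of the top 1% and of a value of 100, and leaving out peaks that overlap another gene, were chosen after seeing the data. Overlap, ranking and element steps were tested on simulated data. Alternatives were other gene windows, overlap rules, minimum values, list lengths, ranking by width, and element settings. Python 3.11.15, numpy 2.4.6, pandas 2.3.3, scipy 1.17.1, pysam 0.24.0 and matplotlib 3.10.9 were used.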

Additional observations from a re-analysis of the deposited data

How the results depend on the processing

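No paired analysis was possible because only 1 library stood for each group, which also left no replicate to leave out. Of 148 recomputed counts over 18 results, 131 stayed within 1.5 times the reported count and 17 did not. With gene bodies alone (0 kb), 2 members had a peak in B cells mock, and the B and non-B IR lists had 21 and 20 peaks. With 25 kb there were 53 peaks in B cells IR, and with 50 kb the IR lists had 80 (B cells) and 68 (non-B cells). In promoters (5 kb upstream to 2 kb downstream of any start), 2 members had a peak in B cells mock, with 3 peaks there, and the IR lists had 19 (B cells) and 20 (non-B cells). With the irradiated lists cut to the length of the mock lists, 4 members had a peak in either compartment, with 6 peaks in B and 6 in non-B cells, and members with a peak after irradiation and none in mock numbered 0 (B cells) and 1 (non-B cells). With a spacer allowed, 11 sites near the midpoint held an element, where 7 did without. These windows, list lengths and spacers differ in size by construction. No share of all genes stands beside the member counts of this section, so they describe the members alone. Sites in both irradiated lists numbered 27 of 38, 27 of 38 with 50% overlap, 23 of 33 at a value of at least 8, and 26 of 36 with equal list lengths. Without peaks that overlap another gene, 7 members had a peak in B cells IR, since both Bak1 peaks overlap Ggnbp1. Read depth is unknown and limits every statement on absence.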
